A study of Rattus norvegicus with 11 samples.

Results

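The circadian clock genes of the rat heart were read through 8 probe sets for 6 genes: Per2, Nr1d1, Nr1d2, Bhlhe40, Dbp and Tef. A probe set joins several short probes against a transcript into a single reading. These are all of the 8799 on the array, dim ones included, that the platform annotation assigns to those symbols. The 6 genes are among 4949 different symbol entries of that annotation, some of which join several symbols. Dbp and Nr1d1 had 2 probe sets each and the other 4 genes had 1. Total RNA was taken from heart ventricle of the inbred Fischer-344 rat, with 6 arrays from old rats of 22 months and 5 from young rats of 4 months. The labels give no treatment, no allele and no sex, and they give no time of day at which the hearts were taken. They also leave unsaid whether the arrays stand for different animals, so p-values here describe only sample-to-sample spread, part of which may be technical.

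The clock of a heart cell is a feedback loop of transcription factors. BMAL1 and CLOCK bind DNA at the E-box and switch on their own repressors, among them the PER proteins, the REV-ERB receptors made from Nr1d1 and Nr1d2, and the repressor made from Bhlhe40. The loop also drives Dbp and Tef, both of the PAR bZIP family, which bind the D-box and pass the rhythm on to metabolic genes. In most tissues Dbp, Nr1d1, Nr1d2, Per2 and Tef peak within a few hours of each other and Bmal1 peaks in the opposite phase, so their levels depend on the hour of sampling.

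The sequences before the start sites of Per2 and Dbp, which varied together across arrays, and of Tef, which varied against both, are printed as context for that pattern, from RefSeq on GRCr8, 5′ to 3′, with motif matches in capitals. All 6 genes had a promoter window in the RefSeq table, each of 300 bases, from 250 before the start site to 50 after it, and Nr1d1 had one at each of 2 start sites. The windows were searched on both strands for the E-box CACGTG, for the D-box as TTATGTAA or TTACGTAA, and for the core of the REV-ERB element as TAGGTCA or TGGGTCA; the letters of these motifs do not contain one another. A match is a description of the letters only, and the array gives no measure of binding. The 250 bases before the start are shown.
Per2, chr9:99496994-99497243, minus strand: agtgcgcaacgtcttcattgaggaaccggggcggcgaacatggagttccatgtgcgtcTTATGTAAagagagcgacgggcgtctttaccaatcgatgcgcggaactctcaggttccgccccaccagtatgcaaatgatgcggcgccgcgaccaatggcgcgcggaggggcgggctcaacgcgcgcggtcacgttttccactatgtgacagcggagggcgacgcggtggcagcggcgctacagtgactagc
Dbp, chr1:105312006-105312255, plus strand: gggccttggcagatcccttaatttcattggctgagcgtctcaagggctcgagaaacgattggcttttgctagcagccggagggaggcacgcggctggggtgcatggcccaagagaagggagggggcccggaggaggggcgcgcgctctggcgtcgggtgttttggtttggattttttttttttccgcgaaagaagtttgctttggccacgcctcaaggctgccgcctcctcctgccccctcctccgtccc
Tef, chr7:115206577-115206826, plus strand: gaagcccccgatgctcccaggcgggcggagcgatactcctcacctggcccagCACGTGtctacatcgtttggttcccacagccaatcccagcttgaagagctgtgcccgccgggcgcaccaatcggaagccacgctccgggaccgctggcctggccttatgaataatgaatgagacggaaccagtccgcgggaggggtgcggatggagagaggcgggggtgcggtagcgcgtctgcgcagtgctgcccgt

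Per2 held a D-box 192 bases before its start, and Tef held an E-box 198 bases before its start. None of the searched letters were in the Dbp window, the Nr1d2 window or that of the first Nr1d1 start site. Other spellings of these motifs and bases outside the windows were not searched, so a gene without a match may still hold such sites. Bhlhe40 held an E-box 220 bases before its start, shown here with 20 bases on each side, and so did the second start site of Nr1d1, at 191 bases. Of all 33469 windows of the table, 6.42% held the E-box, 1.01% the D-box and 6.6% the REV-ERB core.
Bhlhe40, chr4:143174210-143174255, plus strand: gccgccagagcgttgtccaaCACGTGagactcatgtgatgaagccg
Nr1d1, second start site, chr10:84229620-84229665, minus strand: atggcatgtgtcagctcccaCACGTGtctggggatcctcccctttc

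Arrays differed in quality and in cell content. The GAPDH control transcript is read near both of its ends, and its 3' over 5' log2 ratio was 3.39 in old replicate 3 and 4.09 in old replicate 4, against 0.07 to 0.77 in the other 9 arrays. For actin the ratio was 1.98 and 1.82 in these arrays, against -0.40 to 0.89 elsewhere, while for hexokinase it went the other way, at -0.93 and -4.16 against -0.16 to 2.54. The bacterial spike-in controls were bright in old replicates 3 to 6 and young replicate 4 and dim in the other 6 arrays. Ventricular muscle markers marked every array: Myl2, Myh6, Tnni3, Actc1 and Myl3 read at least 23766.5 on each. Atrial markers were also present, and the mean log2 intensity of the 3 measured (Myl7, Myl4 and Nppa) ran from 10.61 to 13.94 in old and from 9.04 to 12.69 in young, at 12.82 and 13.94 in old replicates 3 and 4. Fat cell markers (Plin1, Cfd, Fabp4 and Lep) averaged 8.54 to 10.31 in old and 8.43 to 9.24 in young, and fibroblast markers (Col1a1, Col3a1 and Dcn) 11.53 to 13.36 and 12.03 to 13.32, and old replicate 4 read 9.67 for the first and 13.36 for the second. Of the endothelial markers Pecam1, Kdr and Vwf, the first 2 were bright enough to test and both had a lower mean in old; the 3 averaged 5.79 to 7.80 in old and 7.24 to 8.44 in young, with 6.38 in old replicate 3 and the lowest value in old replicate 4. Blood markers (Hbb and Alas2) averaged 10.21 to 14.52 in old, with old replicate 3 lowest and old replicate 4 highest, and 9.24 to 13.46 in young. Macrophage markers (Cd14 and C1qb) averaged 9.23 to 10.34 in old and 8.99 to 10.03 in young, with C1qb higher and Cd14 lower in old. Liver markers (Alb, Apoa1 and Ttr) averaged 7.79 to 9.09 in old and 7.31 to 8.45 in young. Alb and Ttr had a higher mean in old and Apoa1 a lower one. The part of these differences in the results for clock genes was not tested. In whole tissue, fewer cells of a type and less RNA per cell cannot be told apart.

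None of the 8 clock probe sets passed the test between old and young hearts. Of the 5244 probe sets tested with limma, 0 had an adjusted p under 0.05 (0.0% of those tested), and 394 (7.51%) had an unadjusted p under 0.05. The tested set left out probe sets of low mean intensity. It held 7 of the 8 clock probe sets; that of Per2 was under the limit, and its difference came from the same fit on all 8740 probe sets, of which 0 were called and 585 (6.69%) had an unadjusted p under 0.05. Over all 8 clock probe sets, 5 were higher and 3 lower in old, and 1 had an unadjusted p under 0.05. By gene, the 5 tested members had a median log2 difference of 0.04, against -0.01 over all 3206 tested genes.

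Per2 encodes a PERIOD protein, which joins CRY proteins in the main repressor complex of the clock. Its probe set AB016532_at read 141, 99.6, 368.9, 253.9, 31.5 and 78.1 in old replicates 1 to 6 and 108.4, 19.5, 32, 48.7 and 63.6 in young replicates 1 to 5, in deposited linear intensity. Old replicates 3 and 4 were the highest, old replicate 5 lay among the young arrays, and the groups overlapped. Values under the floor of 47.4 were raised to it before the log2 step. This touched old replicate 5 and young replicates 2 and 3 and understates their distance from the rest. Old arrays averaged 7.02 ± 1.10 (SD, n = 6) in log2 intensity and young arrays 5.90 ± 0.51 (SD, n = 5). The difference, old minus young, was 1.13 ± 0.53 (SE, limma adjusted p = 0.721; 95% interval -0.02 to 2.27), with 5 of 6 old arrays above the young mean, and it was 0.51 ± 0.37 without old replicates 3 and 4, the arrays with the high GAPDH ratio.

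Nr1d1 encodes REV-ERBα, which represses Bmal1. On the probe set M25804_g_at the old arrays read 641.9, 1093.8, 869, 1283.7, 727.9 and 1637.1, and the young arrays 775.9, 1137.9, 1402.6, 631.2 and 1046.6. Both groups spanned almost the same range, and only old replicate 6 lay above every young array. The log2 difference was 0.04 ± 0.35 (SE, limma adjusted p = 0.982), with a 95% interval of -0.70 to 0.78. The other probe set, M25804_at, read 306, 471, 1043.9, 954.8, 661.5 and 934.9 in old and 420, 789.9, 1271.2, 494.6 and 1027.7 in young. Its difference was -0.14 ± 0.43 (SE, limma adjusted p = 0.955). The direction of both probe sets turned with single arrays left out, as the closing section lists, so neither has a settled sign. In the RefSeq annotation Nr1d1 overlaps Thra, a thyroid hormone receptor gene on the opposite strand. The 3 Thra probe sets differed by 0.11 ± 0.59, -1.53 ± 0.70 and -0.91 ± 0.69 (SE), and none passed.

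Nr1d2 encodes REV-ERBβ, the sister receptor. U20796_at read 265.9, 281.1, 319.4, 393.5, 195.1 and 448.5 in old and 140.4, 95.2, 191.2, 434.5 and 450.1 in young. The young arrays fell into 3 low and 2 high readings, and all old readings lay inside the young range. On the log2 scale old arrays averaged 8.26 ± 0.43 (SD, n = 6) and young arrays 7.77 ± 0.99 (SD, n = 5), which differ by 0.49 ± 0.53 (SE, limma adjusted p = 0.849; 95% interval -0.61 to 1.58). It ran from 0.19 without young replicate 2 to 0.73 without young replicate 4 and 0.75 without young replicate 5, was 0.20 ± 0.51 with median centring, and turned to -0.42 ± 1.22 within the bright arrays.

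Bhlhe40, also called DEC1, encodes a repressor that binds E-boxes and responds to feeding, hypoxia and light. Its probe set AF009330_at read 370.9, 42.1, 40.7, 102.3, 51.6 and 108.6 in old and 229.4, 336, 134.9, 259.8 and 456.9 in young. Old replicate 1 lay among the young arrays, and the other 5 old arrays were below every young array. On the log2 scale old arrays averaged 6.47 ± 1.15 (SD, n = 6) and young arrays 8.03 ± 0.66 (SD, n = 5), and the difference of -1.57 ± 0.63 (SE) had an unadjusted limma p of 0.022 and an adjusted p of 0.56. The exact two-sided permutation test of this single probe set gave p = 0.0346, where 0.00216 is the smallest that 462 splits of the arrays allow. At an unadjusted p under 0.05, 4.12% of tested probe sets were lower in old, against 1 of the 7 tested clock probe sets, a count too small to set apart from that share. The difference kept its sign in all 24 alternatives, between -1.98 and -0.99. Blocking on spike-in brightness gave -1.31 ± 0.70 (SE). The dim arrays by themselves gave -0.99 ± 0.82, and the bright ones, with a single young array, -1.85 ± 1.32.

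**Figure D1:**
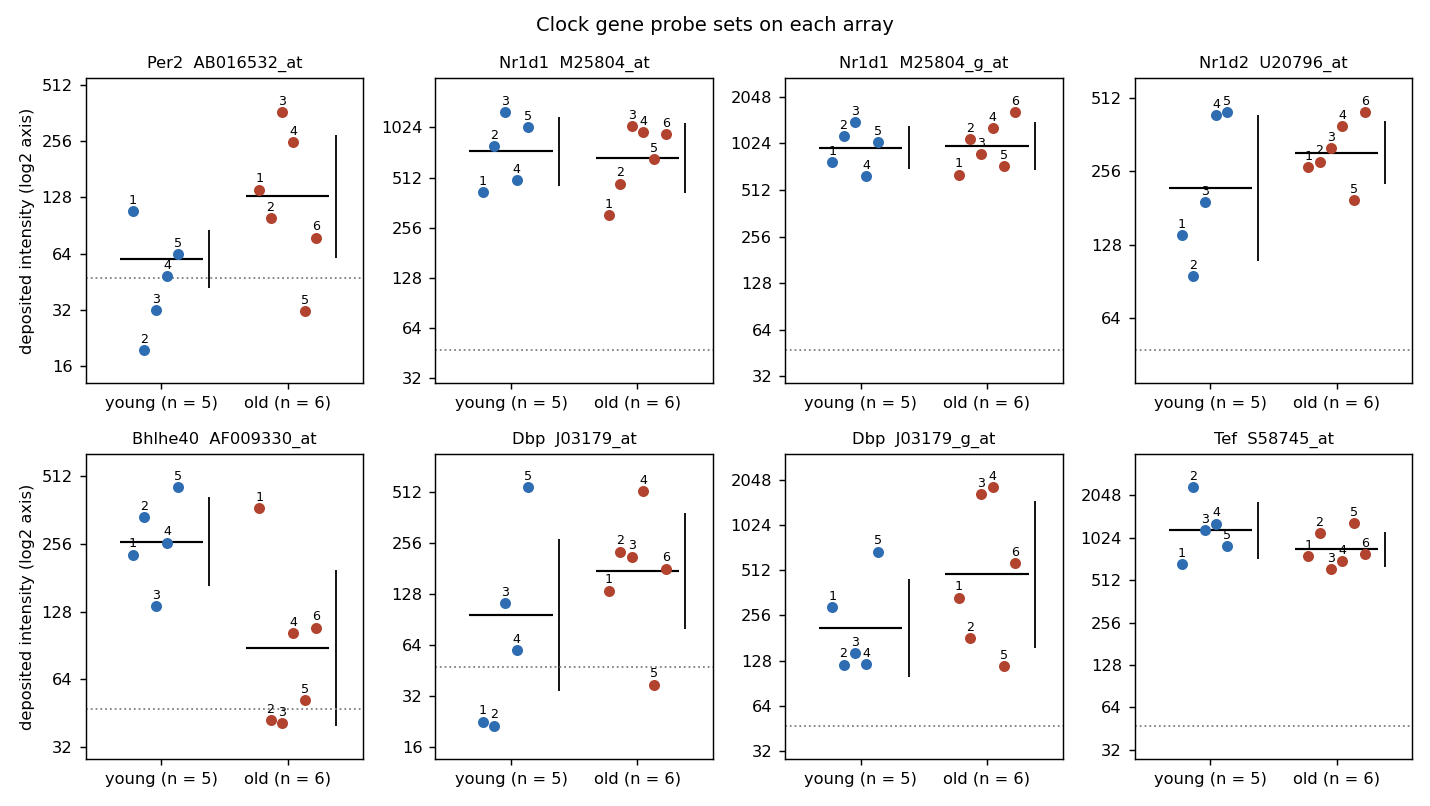
Deposited intensity (log2 axis) of each of the 8 clock probe sets on the 5 young (blue) and 6 old (red) arrays, with replicate numbers; horizontal bars are group means and vertical bars 1 SD of log2 values after flooring, and the dotted line is the floor of 47.4. Groups overlap in every panel, and for Bhlhe40 all old arrays except replicate 1 lie below the young ones.

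Dbp encodes a PAR bZIP activator whose mRNA has one of the widest daily swings known. On J03179_g_at, which stands for the gene because of its higher mean, the old arrays read 336.1, 180.5, 1637.4, 1813.8, 118.4 and 572.4. The young arrays read 289.6, 120.6, 143.9, 120.9 and 680.2. Old replicates 3 and 4 were far above the rest, while old replicate 5 was the lowest of all 11 arrays and young replicate 5 came next below that pair. The spread from lowest to highest array was 15.3-fold, and the within-group SD of 1.41 on the log2 scale was larger than that of 93.5% of tested probe sets, whose median was 0.90. On the log2 scale old arrays averaged 8.91 ± 1.63 (SD, n = 6) and young arrays 7.72 ± 1.08 (SD, n = 5), which differ by 1.19 ± 0.71 (SE, limma adjusted p = 0.713). Without old replicates 3 and 4 it was 0.27 ± 0.66, and with array weights 0.34 ± 0.60. It was 0.027 ± 0.73 within the dim arrays, 2 old and 4 young, and 2.47 ± 1.29 within the bright arrays, 4 old and 1 young.

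The second Dbp probe set, J03179_at, read 134.9, 229.3, 214.2, 522.5, 37.5 and 182 in old and 22.7, 21.5, 114.1, 59.9 and 548.1 in young. Here old replicate 4 and young replicate 5 were the highest and old replicate 3 was near old replicate 2, so the probe sets differed on old replicate 3. The difference was 0.87 ± 0.73 (SE, limma adjusted p = 0.8), with 0.55 ± 0.74 without old replicate 4 and 1.49 ± 0.70 without young replicate 5. Across the 11 arrays the log2 values of both Dbp probe sets had a Pearson r of 0.763 (permutation p = 0.00762, adjusted p = 0.0152 over 2 such pairs; Spearman rho 0.789, permutation p = 0.00589, adjusted p = 0.0118). Those of Nr1d1 had r = 0.707 (permutation p = 0.0179, adjusted p = 0.0179; rho 0.591, permutation p = 0.0615, adjusted p = 0.0615). Without the 2 arrays farthest from the median, r was 0.629 for Dbp and 0.565 for Nr1d1. For comparison, the median r over 1403 pairs of tested probe sets of the same gene was 0.21, with quartiles of -0.06 and 0.50.

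Tef encodes the thyrotroph embryonic factor, another PAR bZIP activator. S58745_at read 760.5, 1107.7, 616.8, 695.8, 1302.1 and 783.5 in old and 661.8, 2332.6, 1157.2, 1289.1 and 891.5 in young. Young replicate 2 was highest by far and old replicate 3 lowest, and the within-group SD of 0.55 was larger than that of 16.5% of tested probe sets. On the log2 scale old arrays averaged 9.73 ± 0.42 (SD, n = 6) and young arrays 10.17 ± 0.68 (SD, n = 5), which differ by -0.45 ± 0.37 (SE, limma adjusted p = 0.794; 95% interval -1.22 to 0.32), with 5 of 6 old arrays below the young mean. It was -0.19 ± 0.36 without young replicate 2, -0.076 ± 0.32 with array weights and -0.74 ± 0.38 with median centring.

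**Figure D2:**
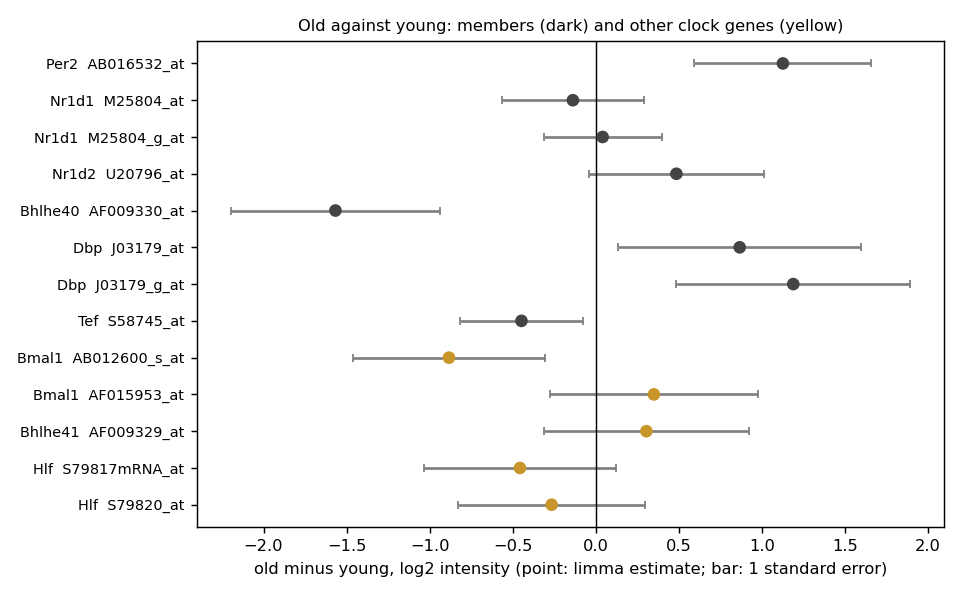
Old minus young difference in log2 intensity (horizontal axis) for the 8 clock probe sets (dark) and for 5 probe sets of other clock genes with most arrays above the floor (yellow); points are limma estimates and bars 1 standard error. Bhlhe40 lies farthest from 0 at -1.57, and no probe set passed after adjustment.

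Clock genes keep fixed phases to each other through the day, and co-variation between them across arrays was therefore examined; with no hour in the labels, a part of sampling time in any relation was not tested. All 15 pairs of the 6 genes were compared across the 11 arrays in log2 intensity, each gene by 1 probe set. The arrays did not share 1 pattern over the 6 genes: the median Pearson r of the 15 pairs was -0.03, against 0.0016 over the 5137615 pairs of tested genes, and 7 of the 15 were positive. Of the 15 pairs, 1 had r of 0.6 or more and 2 had -0.6 or less, where 5.23% and 4.21% of all pairs of tested genes did so.

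Per2 and Dbp varied together, and Tef varied against both. For Per2 and Dbp, r was 0.835 (permutation p = 0.00147, adjusted p = 0.022 over 15 pairs) and Spearman's rho was 0.817 (permutation p = 0.00359, adjusted p = 0.0179). For Per2 and Tef, r was -0.758 (permutation p = 0.00628, adjusted p = 0.0314) and rho -0.917 (permutation p = 0.00029, adjusted p = 0.00435). For Dbp and Tef, r was -0.774 (permutation p = 0.00436, adjusted p = 0.0314) and rho -0.845 (permutation p = 0.00172, adjusted p = 0.0129). The array with the most Per2, old replicate 3, had the least Tef, and young replicate 2 had the least Per2 and the most Tef. Old replicate 5 and young replicates 3 and 4 also joined low Per2 and low Dbp with high Tef. As background, Tef and Dbp are known to peak close together, and the sign between them here was negative.

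The link between Per2 and Dbp rested on old replicates 3 and 4, which are also the 2 arrays farthest from the median of either gene. Without them, r was 0.522 for Per2 and Dbp (exact permutation p = 0.149, adjusted p = 0.559, n = 9), which did not pass. For Per2 and Tef it was -0.726 (exact permutation p = 0.0227, adjusted p = 0.17, n = 9), and for Dbp and Tef -0.727 (exact permutation p = 0.0222, adjusted p = 0.17, n = 9). Those 2 values are close to the values with all arrays, although neither passed after adjustment, and on these 9 arrays 7.01% of all pairs of tested genes had r of -0.6 or less and 8.16% had 0.6 or more. With each group's mean removed, r was 0.799, -0.700 and -0.727, with an exact permutation adjusted p of 0.0639 for Per2 and Dbp and 0.0628 for both others. Within the 6 dim arrays it was 0.392 (exact permutation p = 0.439), -0.725 (exact permutation p = 0.075) and -0.687 (exact permutation p = 0.128). With the means of the spike-in classes removed, r was 0.822 (exact permutation adjusted p = 0.121) for Per2 and Dbp, -0.745 and -0.763 for the others (exact permutation adjusted p = 0.0474 for both). The 5 bright arrays are too few for a correlation. All 3 calls were also lost on leaving out any one of old replicates 3, 4 and 5 and young replicates 3 and 4 (permutation adjusted p = 0.0509 to 0.086), and that of Per2 and Tef without old replicate 1 (0.0593). With median centring, r for Per2 and Tef was -0.598 (permutation adjusted p = 0.254) and for Dbp and Tef -0.685 (0.134). With each gene's probe sets averaged all 3 calls were lost (permutation adjusted p = 0.0822 each, with r = 0.727 for Per2 and Dbp), and quantile normalization lost that of Per2 and Tef (permutation adjusted p = 0.0735).

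**Figure D3:**
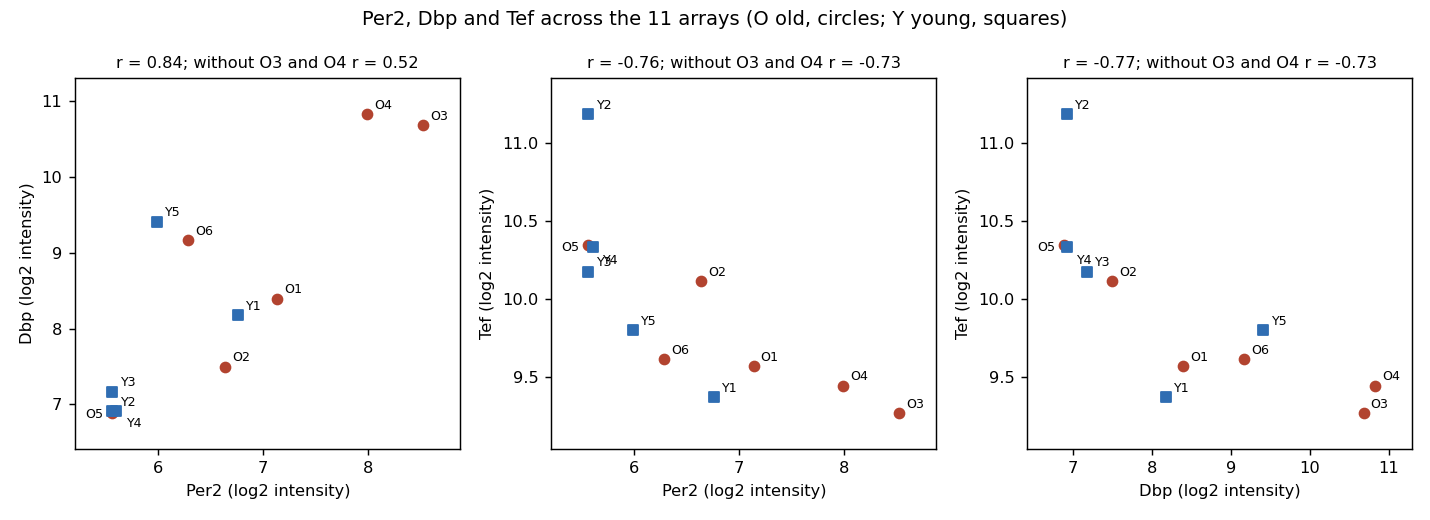
Log2 intensity of Per2 against Dbp (left), Per2 against Tef (middle) and Dbp against Tef (right), 1 point for each of the 11 arrays (O old, circles; Y young, squares; numbers are replicates). Old replicates 3 and 4 hold the upper right of the left panel, and r is 0.835 with them and 0.522 without, while both relations to Tef have an r near -0.73 without them.

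No pair with a REV-ERB gene or Bhlhe40 was called over the 11 arrays. The r of Nr1d2 was positive with Per2 and Dbp and negative with Tef, the signs of the pattern. Nr1d2 and Dbp had r = 0.535 (permutation p = 0.0909, adjusted p = 0.339; rho 0.573, permutation p = 0.0718, adjusted p = 0.269), and Nr1d2 and Tef had r = -0.506 (permutation p = 0.113, adjusted p = 0.339; rho -0.245, permutation p = 0.47, adjusted p = 0.828). Neither pair passed. Without the 2 arrays farthest from the median of Nr1d2, young replicates 1 and 2, these were 0.513 and -0.391. The value for Tef rested on 1 array, since it was -0.052 without young replicate 2 alone. The other 10 pairs lay between -0.346 (Per2 and Bhlhe40) and 0.291 (Per2 and Nr1d2), and none of them passed (smallest permutation p = 0.298, adjusted p = 0.746). Nr1d1 and Nr1d2, the sister receptors, had r = 0.0881 (permutation p = 0.794, adjusted p = 0.916) and rho 0.0545 (permutation p = 0.88, adjusted p = 0.99). Their r was 0.841 within the 6 old arrays (exact permutation p = 0.0389) and -0.097 within the 6 dim arrays (exact permutation p = 0.836). Per2 and Nr1d1 had r = -0.031 over all arrays and -0.871 within the dim arrays (exact permutation p = 0.0194). After adjustment, 0 of the 15 pairs were called within the old arrays or within the dim arrays. Of all pairs of tested genes, 13.2% had r of 0.6 or more within the old arrays. Within the dim arrays, 12.3% of them had r of -0.6 or less.

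**Figure D4:**
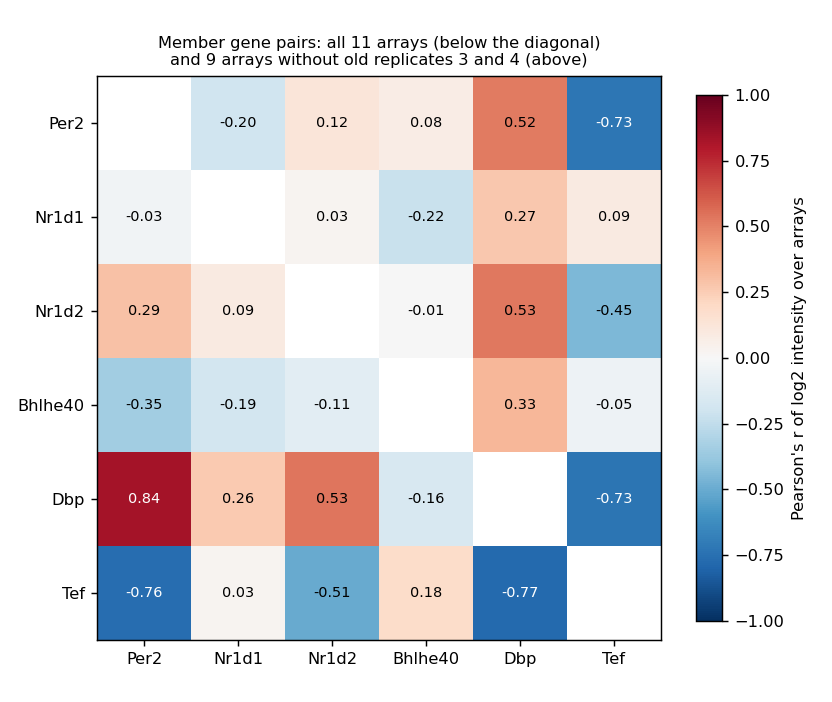
Pearson's r of log2 intensity for each pair of the 6 genes, with all 11 arrays below the diagonal and with 9 arrays, without old replicates 3 and 4, above it. The strongest squares join Per2, Dbp and Tef, and the rows of Nr1d1 and Bhlhe40 stay between -0.346 and 0.332.

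The genes most like a member were sought among the 3206 tested genes by Pearson's r over the 11 arrays. For Per2 they were Tsc22d1, a leucine zipper regulator, with r = 0.95, Fn1, which encodes the matrix protein fibronectin, with r = 0.948, and Naca, a chaperone subunit at the ribosome, with r = 0.897. Permutation p was 1e-05 for Tsc22d1 and Fn1, the smallest that 100000 resamples can give (adjusted p = 0.016 over all genes), and 8e-05 for Naca (adjusted p = 0.0681). Spearman's rho was 0.973, 0.881 and 0.89 (permutation p = 1e-05, 0.00074 and 0.00073). Without old replicates 3 and 4, r was 0.909, 0.911 and 0.856. The old minus young differences of these genes were 1.02 ± 0.38, 0.72 ± 0.42 and 0.95 ± 0.37 (SE), in the direction of Per2. The part of a shared group difference in these r values was not tested. Dbp ranked 13th in this order for Per2, and Tef 3123rd of 3206.

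For Dbp the nearest genes were Adh5, an alcohol dehydrogenase, with r = 0.901, Pnrc1, a nuclear receptor coactivator, with 0.887, and Man1a1, a mannosidase of the Golgi, with 0.879. Their permutation p was 0.00027, 0.00027 and 5e-04 (adjusted p = 0.0787, 0.0787 and 0.092), rho was 0.773, 0.882 and 0.89, and r without old replicates 3 and 4 was 0.707, 0.804 and 0.837. None of the 3 genes named for Dbp passed, while 3 other genes had a permutation adjusted p under 0.05 with it. The old minus young differences of Adh5, Pnrc1 and Man1a1 were 0.52 ± 0.35, 0.53 ± 0.63 and 1.17 ± 0.68 (SE). For Nr1d1 the nearest genes were Itgb7, an integrin chain, with 0.845, Gsk3b, a kinase that acts on clock proteins, with 0.812, and Chrm3, a muscarinic receptor, with 0.808. Those of Nr1d1 did not pass (permutation p = 0.00082, 0.00134 and 0.00228, adjusted p = 0.836 for each; rho 0.764, 0.764 and 0.782). Without the 2 arrays farthest from the median of Nr1d1, r was 0.864, 0.852 and 0.884.

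Among the other clock genes, the activators could be read only dimly. Of the listed activators, Bmal1 and Rorb had probe sets, all below the limit for testing. Bmal1 on AB012600_s_at read 49.2, 59.5, 49, 43.6, 88.3 and 288 in old and 279.2, 94.8, 212.9, 57.9 and 151.8 in young, so that 5 old arrays and young replicate 4 were low and old replicate 6 was at the level of the highest young array. The difference in the fit without the limit was -0.88 ± 0.58 (SE, limma adjusted p = 0.758). Its other probe set, AF015953_at, read 94.8, 373.1, 47.9, 73.9, 263.3 and 95.4 in old and 137.6, 154.7, 161.7, 37.9 and 20.3 in young, and the groups differed by 0.35 ± 0.63 (SE, limma adjusted p = 0.896). This was 0.025 ± 0.58 without old replicate 2, 0.13 ± 0.63 without old replicate 5 and 0.099 without young replicate 4 or 5. That of AB012600_s_at kept its sign in 21 of 22 alternatives. It was -1.27 ± 0.45 (SE) without old replicate 6, -1.66 ± 0.54 within the dim arrays and -1.58 ± 0.45 with array weights. Without old replicates 3 and 4 it was -0.57 ± 0.68. Within the bright arrays, with a single young array, it turned to 0.60 ± 1.09. None of these fits passed after adjustment, so neither probe set gave a settled difference. Rorb, a receptor that competes with REV-ERB, read 3.3 to 44.9, below the floor on all 11 arrays.

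Among the repressors and bZIP factors, Bhlhe41, the relative of Bhlhe40, read 44.7 to 596.6 in old and 109.9 to 266.4 in young, and the groups differed by 0.30 ± 0.62 (SE, limma adjusted p = 0.924), a sign that turned without old replicate 4. Timeless lay below the floor on 8 of 11 arrays. Hlf, the remaining PAR bZIP factor, differed by -0.46 ± 0.58 (SE) on S79817mRNA_at and -0.27 ± 0.56 on S79820_at (limma adjusted p = 0.868 and 0.931). The first was -0.20 without old replicate 2 and -0.76 without young replicate 2, the second turned without young replicate 2, and its other probe set was below the floor on 8 arrays.

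Genes around the clock were counted from lists, each gene by 1 tested probe set, and 0 members of any of these lists passed. Of the kinases and turnover factors of clock proteins, 1 was higher and 2 lower in old, with a median log2 difference of -0.35. Csnk1a1 differed by -1.04 ± 0.53 (SE) and Csnk1d by -0.35 ± 0.39, both casein kinases. Of 8 tested rhythmic output genes, 3 were higher and 5 lower, with a median of -0.18. Cdkn1a, a cell cycle inhibitor, differed by 1.07 ± 0.62 and Bdh1, an enzyme of ketone use, by -1.06 ± 0.72.

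Glucocorticoid-induced genes can reflect the daily hormone peak or stress at sampling. Of 5 tested, 1 was higher and 4 lower in old, with a median of -0.10. Dusp1, a phosphatase of MAP kinases, differed by -1.88 ± 0.56 (SE, unadjusted limma p = 0.00323, adjusted p = 0.537; exact permutation p = 0.00866), and Nfkbia, the inhibitor of NF-kB, by -0.53 ± 0.40. Of 11 tested immediate early genes, 5 were higher and 6 lower, with a median of -0.17, and Junb and Atf3, both stress-responsive factors, differed by -1.18 ± 0.60 and 0.83 ± 0.58. Over all tested genes the median was -0.01.

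None of these 4 list medians kept its sign in all alternatives, and none has a settled direction. That of immediate early genes was 0.31 without old replicate 6, 0.42 without young replicate 4, 0.059 without old replicate 4, 0.092 without young replicate 1 and 0.28 with array weights, and -1.15 within the bright arrays. That of glucocorticoid-induced genes was 0.23 without old replicate 6, 0.0037 without young replicate 4 and -0.89 within the bright arrays. For the kinases it was 0.10 within the dim arrays, -0.57 without old replicate 1 and -0.14 without old replicate 4. For the rhythmic output genes it was 0.24 with spike-in brightness as a block and -0.037 without old replicate 4. Median centring, which moved the median of all tested probe sets from -0.01 to -0.30, put the 4 medians between -0.64 and -0.39.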

How the data were processed

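Total RNA of heart ventricle was measured on 11 rat expression arrays. The deposited table gives 1 linear intensity for each of 8799 probe sets and each array, from 0.2 to 307755.8. The authors had scaled these intensity values, since a 2% trimmed mean gave 499.6 to 500.0 for every array; the software and background correction behind them were not given in the sources used here. Readings under 47.4, the 20th percentile, were set to it, and log2 was taken. The 59 control probe sets and those with a mean log2 value under the 40th percentile were left out, which left 5244. The age groups were fitted with limma 3.58.1 (R 4.3.3; lmFit, then eBayes with trend), and p-values were adjusted by Benjamini-Hochberg across the tested probe sets, with calls at an adjusted p under 0.05.

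Precision is limited by the small number of arrays. Alternatives covered the floor, filter, scaling, trend, array weights, blocks, probe set choice and single arrays left out. Correlations used permutation tests with 100000 resamples in Python 3.11.15, or all permutations where fewer than 10 arrays entered or values were permuted within groups, all two-sided, and a pair of genes is called at an adjusted p under 0.05. A gene with several tested probe sets is represented by the one with the highest mean. The spike-in classes were cut at the widest gap, 1.76, between the arrays' mean log2 intensity of these controls. Symbols came from GEO's platform annotation, where 7006 probe sets have 1 symbol, 308 have several and 1426 have none; 6985 of the single symbols matched the RefSeq table of GRCr8 by gene number, the 8 clock probe sets among them. No genome build belongs to the array, so gene coordinates are not printed apart from those of the RefSeq promoters.

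The members, gene lists and alternatives were chosen with earlier results of these data known. Named by rule were every clock probe set, the measured activators, repressors and bZIP factors, the 2 genes of smallest p in each other list, and the 3 genes nearest to Dbp, Nr1d1 and Per2. Other list members are counted only. The pairs given singly are those with an absolute r of 0.5 or more. Outside that rule, Nr1d1 with Nr1d2 and Per2 with Nr1d1 are also given, as are the ends of the range of the other pairs. The scripts were tested on simulated data.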

Additional observations from a re-analysis of the deposited data

Results flagged for a closer look

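In 4 of 30 groups of arrays examined over the clock probe sets, 1 array stood far from the others of its group. Chance flags about 1 group in 20 where values are not tied. For Timeless and S79820_g_at of Hlf most arrays were set to the floor, so that rate does not apply to their flags. Old replicate 6 read 8.17 on the log2 scale for Bmal1 (AB012600_s_at), and the next old array read 6.46. Timeless (AB019576_at) stood at 6.87 in old replicate 2, with the other old arrays at the floor of 5.57, and at 6.80 in young replicate 3, with the next young array at 5.62. Hlf (S79820_g_at) stood at 6.18 in young replicate 2 with the other young arrays at the floor. None of the 8 probe sets of the 6 main clock genes had such an array.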

How the results depend on the processing

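The 13 clock probe sets with a difference were refitted under 22 to 25 alternatives each, and none passed in any (smallest limma adjusted p = 0.25, for Bmal1). The signs of Per2, Bhlhe40, both Dbp probe sets, Tef, AF015953_at of Bmal1 and S79817mRNA_at of Hlf held in all of theirs. Counts of calls leave aside the bright arrays, which hold a single young array. Among the 5244 tested probe sets the count was 0, except for 1 within the dim arrays and 2 without old replicate 5. In the fit on all 8740 probe sets it was 0, except for 24 within the dim arrays and 1 without old replicate 5. The lists kept a count of 0. For Nr1d1, M25804_g_at turned to -0.25 with median centring, -0.062 with array weights, -0.10 with the replicate block, -0.35 within the dim arrays, -0.0064 without old replicates 3 and 4 and -0.048 as the mean of both probe sets, and ran from -0.11 to 0.18 on leaving out single arrays. M25804_at turned to 0.84 within the bright arrays and ran from -0.34 to 0.088 on leaving out single arrays. Within the bright arrays Nr1d2 turned to -0.42, AB012600_s_at of Bmal1 to 0.60 and Bhlhe41 to -0.58. Bhlhe41 was -0.0095 without old replicates 3 and 4 and ran from -0.021 to 0.71 on leaving out single arrays. S79820_at of Hlf turned to 0.19 with array weights, 0.052 within the dim arrays and 0.12 without old replicates 3 and 4, and ran from -0.48 to 0.064 on leaving out single arrays. The cause was not tested. Median centring moved the median of all tested probe sets from -0.01 to -0.30, and under it 69 probe sets were higher and 440 lower at an unadjusted p under 0.05, against 178 and 216; quantile normalization gave 129 and 240. The labels do not say whether the replicate numbers carry an order or a batch. Same-numbered old and young arrays had deviation correlations of -0.25 to 0.25, and 1 of 5 young arrays correlated best with its own number. So few arrays cannot settle what the numbers stand for. The replicate block left the count of calls at 0. The median r over the 15 pairs ran from -0.14 to 0.07 over its 21 alternatives.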

Other observations

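Bmal1 is known to run opposite to the repressors and outputs of the clock, so its 2 probe sets were set against the 6 genes across the 11 arrays, 12 relations in all, chosen after the values were seen. None passed after adjustment (smallest permutation adjusted p = 0.39). On AF015953_at, Dbp had r = -0.586 (permutation p = 0.0611; rho -0.565, permutation p = 0.0748) and Nr1d2 had r = -0.574 (permutation p = 0.065; rho -0.665, permutation p = 0.0298, adjusted p = 0.358). Without the 2 arrays farthest from the median of Bmal1 these were -0.504 and -0.799, and within the 6 dim arrays they were -0.773 and -0.383. On AB012600_s_at, Dbp had r = -0.173 (permutation p = 0.603) and Nr1d2 -0.208 (permutation p = 0.54). Tef had 0.402 with AF015953_at and -0.03 with AB012600_s_at (permutation p = 0.218 and 0.933). In the same order, Nr1d1 was positive with both, at 0.137 and 0.436 (permutation p = 0.684 and 0.179). Per2 had -0.338 and -0.452 (permutation p = 0.307 and 0.164), and Bhlhe40 -0.403 and 0.219 (permutation p = 0.216 and 0.507). The value of -0.403 was 0.136 without the 2 farthest arrays and -0.886 within the dim arrays. Bmal1 itself held a REV-ERB core 16 bases before its start in the RefSeq window, shown with 20 bases on each side from chr1:176766292-176766338, plus strand.
Bmal1: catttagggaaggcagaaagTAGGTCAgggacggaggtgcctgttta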
